A study of Homo sapiens with 6 samples.

Results

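A total of 92 oxidative phosphorylation subunit genes were followed in SU-CCS-1 cells, a long-established line of clear cell sarcoma, the soft tissue tumor driven by the fusion gene EWSR1::ATF1 (EA1). They were chosen by symbol among the protein-coding genes of the count table, as the NDUF A, B, C, S and V subunits, SDHA to SDHD, the UQCR genes, COX4 to COX8, the ATP5F1, ATP5M, ATP5P and ATP5I genes and the mitochondrial ND, CO, CYB and ATP genes, with the NDUFAF assembly factors left out. Of the 18118 genes counted, 79 members were nuclear and 13 were encoded by the mitochondrial genome. The 6 RNA-seq libraries all came from fusion-carrying cells transfected with an siRNA. The siNeg1 group received a scramble control, and the labels give 2 EA1 knockdown groups, siEA1-1 and siEA1-2, with 2 libraries in each of the 3 groups. The methods describe a single siRNA against EA1, so whether both knockdown groups received different siRNAs is not settled. No untransfected cells were among these samples, the line is a single tumor cell line, and the labels did not say whether replicates were separate cultures, so p-values measured only the spread between these libraries, which may be technical. The question was how knockdown of EA1 changed the transcriptome, here for the respiratory complexes and for the genome that encodes each subunit.

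Oxidative phosphorylation is carried out in the inner mitochondrial membrane. Complex I (NADH dehydrogenase) and complex II (succinate dehydrogenase) pass electrons to coenzyme Q, complex III passes them to cytochrome c, complex IV (cytochrome c oxidase) passes them to oxygen, and complex V (ATP synthase) uses the resulting proton gradient to make ATP. Complex II is encoded by the nucleus alone, whereas each of the other complexes combines nuclear proteins made in the cytosol with proteins translated inside mitochondria. Mitochondrial mRNAs are cut from long polycistronic transcripts, and tRNAs stand between most of them.

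Regulatory sequence was available for 65 of the 79 nuclear members, as RefSeq promoters (GRCh38.p14) of 300 bases that run from 250 bases before to 50 after the start. Motifs with a known place at respiratory genes were searched as exact letters on both strands: GCATGCGC for NRF1, CCGGAAG for ETS factors, AAGATGG for YY1, and TGACGTCA, the full cyclic AMP response element that ATF1 and its relatives bind. NRF1 letters stood in 21.5% of members and 3.68% of 27305 genes, ETS letters in 32.3% and 12.2%, YY1 letters in 27.7% and 7.11%, and the full response element in 7.69% and 2.25%. The shorter response element core TGACG, which also lies inside the full one, was found in 40.0% of members and 28.4% of all genes, the GC box GGGCGG in 66.2% and 48.3%, and CCAAT in 35.4% and 39.7%. A total of 43 members held at least 1 of the NRF1, ETS, YY1 and full response element letters, and 5 held the full response element (SDHB, NDUFA10, ATP5ME, NDUFB2 and ATP5MC1), of which NDUFA10 alone was called higher over both knockdowns together. In the 200 bases before the start alone, YY1 letters stood in 7.69% of members. Letters in a window are not a bound site. The 4 promoters that follow belong to members called higher after knockdown and show these motifs in capitals, with NRF1 and 2 ETS matches in COX5B, NRF1 and YY1 in NDUFS7, 2 ETS matches in NDUFS3 and the full response element in NDUFA10.
COX5B, chr2:97645812-97646111, plus strand: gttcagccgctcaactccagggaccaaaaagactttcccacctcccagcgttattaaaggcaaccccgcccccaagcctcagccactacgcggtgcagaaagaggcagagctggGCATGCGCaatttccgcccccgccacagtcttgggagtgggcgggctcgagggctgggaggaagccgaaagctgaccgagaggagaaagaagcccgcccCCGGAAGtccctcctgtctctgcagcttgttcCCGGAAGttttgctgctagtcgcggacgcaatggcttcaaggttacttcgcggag
NDUFS7, chr19:1383657-1383956, plus strand: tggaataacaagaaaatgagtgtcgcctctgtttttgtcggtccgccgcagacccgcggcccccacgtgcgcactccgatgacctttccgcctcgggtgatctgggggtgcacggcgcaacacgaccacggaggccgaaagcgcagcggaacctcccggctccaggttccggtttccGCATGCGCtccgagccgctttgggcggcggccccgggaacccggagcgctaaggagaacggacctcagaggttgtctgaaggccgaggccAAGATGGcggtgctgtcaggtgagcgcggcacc
NDUFS3, chr11:47578824-47579123, plus strand: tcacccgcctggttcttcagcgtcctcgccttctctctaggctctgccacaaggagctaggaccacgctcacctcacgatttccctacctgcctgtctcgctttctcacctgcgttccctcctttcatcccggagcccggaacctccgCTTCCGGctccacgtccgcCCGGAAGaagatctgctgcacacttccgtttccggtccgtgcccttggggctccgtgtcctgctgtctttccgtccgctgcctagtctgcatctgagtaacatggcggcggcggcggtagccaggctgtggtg
NDUFA10, chr2:240025293-240025592, minus strand: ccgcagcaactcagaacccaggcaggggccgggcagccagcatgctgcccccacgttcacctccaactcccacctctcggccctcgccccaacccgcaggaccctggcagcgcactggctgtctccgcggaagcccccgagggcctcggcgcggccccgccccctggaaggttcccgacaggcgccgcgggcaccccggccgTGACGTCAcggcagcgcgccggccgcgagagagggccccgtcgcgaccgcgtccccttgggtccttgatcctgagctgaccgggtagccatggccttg

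The libraries held 5942808 to 7599305 counts, so that 3 counts, taken as the limit of detection, stood at 0.386 to 0.534 CPM (counts scaled to the effective library total by the TMM method; these limits cover counting error only). The target gene was checked first. ATF1, whose 3′ exons are part of the fusion, fell from 82.2 and 87.4 CPM in siNeg1 to 21.2 and 20.3 CPM with siEA1-1 and to 21.7 and 22.3 CPM with siEA1-2 (log2 fold change -1.99 ± 0.103 SE over both knockdowns, adjusted p = 9.7e-08), and it cannot be said how much of this was fusion transcript. EWSR1, which supplies the 5′ part, stood at 195 to 233 CPM in all libraries and was not called. The cell type label was checked against markers. SOX10, MITF, PMEL and S100B were present in every library. Over both knockdowns together, 5 of the 6 clear cell sarcoma markers were called higher and 1 was not called, where 21.5% of all genes were called higher. The 3 largest changes were in MLANA (3.10 on the log2 scale, from 0 to 0.599 CPM in control), S100B (2.47) and PMEL (2.14). Of 8 markers of other cell types only COL1A1 and KRT8 were in the counts, at 0.14 to 4.6 CPM.

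Before any comparison, the replicates of siNeg1 and those of siEA1-2 differed for these genes. Such a difference does not tell which library of a pair was the unusual one. Replicate 1 was above replicate 2 for 13 of 13 mitochondrial members in siNeg1 (median difference 0.49 on the log2 scale) and again for 13 of 13 in siEA1-2 (0.41). Among 78 nuclear members tested, 66 were higher in replicate 1 of siNeg1 and 75 in replicate 1 of siEA1-2, with medians of 0.17 and 0.38, while over all 14571 genes tested the medians were 0.00. The siEA1-1 libraries were alike, with medians of 0.01 for nuclear and 0.04 for mitochondrial members. Mitochondrial tRNA genes moved with them, since 19 of 21 were higher in replicate 1 of siNeg1 and of siEA1-2, and their summed level was 368 against 254 CPM in siNeg1, 275 against 260 CPM with siEA1-1, and 370 against 241 CPM with siEA1-2. The part this played in the differences between groups was not tested. The main counts are therefore given also without siNeg1 replicate 1 and siEA1-2 replicate 1, and without each library in turn.

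**Figure D1:**
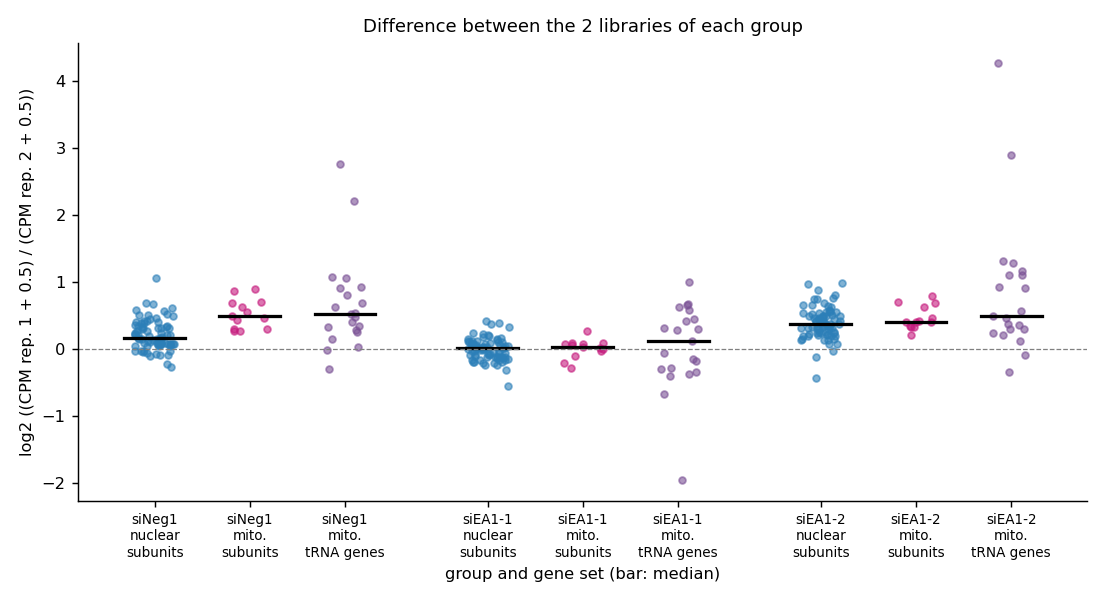
Difference between both libraries of each group (vertical axis, log2 of replicate 1 over replicate 2 in CPM, 0.5 added to each) for 78 nuclear subunits, 13 mitochondrial subunits and 21 mitochondrial tRNA genes (horizontal axis); each point is a gene and each bar a median. The bars of siNeg1 and siEA1-2 lie above 0 (0.17, 0.49 and 0.53, then 0.38, 0.41 and 0.49), and those of siEA1-1 lie near it (0.01, 0.04 and 0.12).

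Every nuclear subunit that was called after knockdown was called higher, and every mitochondrial subunit that was called was called lower. A log2 fold change is knockdown minus siNeg1 throughout, and a gene was called when its adjusted p in the test of all 14571 genes was below 0.05. With siEA1-1, 12 of 78 nuclear members were called higher and 0 lower, where 19.9% of all genes were called higher and 20.3% lower. With siEA1-2, 31 of 78 were called higher and 0 lower, against 18.5% and 18.2% of all genes. Over both knockdowns together, 24 of 78 were called higher and 0 lower, against 21.5% and 22.1% of all genes. The median log2 fold change of nuclear members was 0.18, 0.35 and 0.26 in these 3 comparisons, and that of all genes 0.02, 0.00 and 0.01. The count of nuclear members called higher was thus below the background share with siEA1-1 and above it with siEA1-2 and over both. At an unadjusted p below 0.05, edgeR gave 2 nuclear members lower with siEA1-1, 0 with siEA1-2 and 1 over both, and DESeq2 called 0 lower in each. The comparisons share the siNeg1 libraries and are not independent. In these bulk libraries, a change in RNA per cell and a change in the mix of cells cannot be told apart.

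How many nuclear members were called depended on the libraries. With siNeg1 replicate 1 and siEA1-2 replicate 1 both left out, 31 were called higher with siEA1-1, 15 with siEA1-2 and 27 over both, where 19.6, 13.9 and 18.2% of all genes were called higher, and 1 (UQCRC2) was called lower in each of the 3. On leaving out either siEA1-2 library, 2 were called lower with siEA1-1. Leaving out siNeg1 replicate 2, the lower control library, brought the counts to 3, 4 and 5, all below the 12.4, 11.5 and 13.3% of all genes called higher in that fit. Leaving out siEA1-1 replicate 2 gave 5, 15 and 11, against 12.3, 14.8 and 16.3% of all genes, so that the count over both was again below the background. Without siEA1-1 replicate 1 they were 5, 18 and 17 (all genes 12.7, 15.8 and 17.5%), and without siNeg1 replicate 1 10, 24 and 21 (13.9, 12.7 and 14.8%). Without siEA1-2 replicate 2 they were 22, 49 and 40 (19.9, 16.5 and 20.4%), and without siEA1-2 replicate 1 21, 6 and 18 (19.5, 13.2 and 18.6%), so that the order of both knockdowns against the background turned round. With the replicate number as a block they were 22, 40 and 33 (22.1, 20.5 and 23.6%). Of the 24 members called over both knockdowns, 4 were called in all 16 alternatives run for that comparison: NDUFV1, NDUFS3, UQCR10 and COX8A. By library order alone, 36 of 79 nuclear members (45.6%) had every knockdown library above both controls, against 28.1% of all genes tested, and 2 (NDUFV2 and UQCRC2) had every knockdown library below them, 2.53% against 27.3%.

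**Figure D2:**
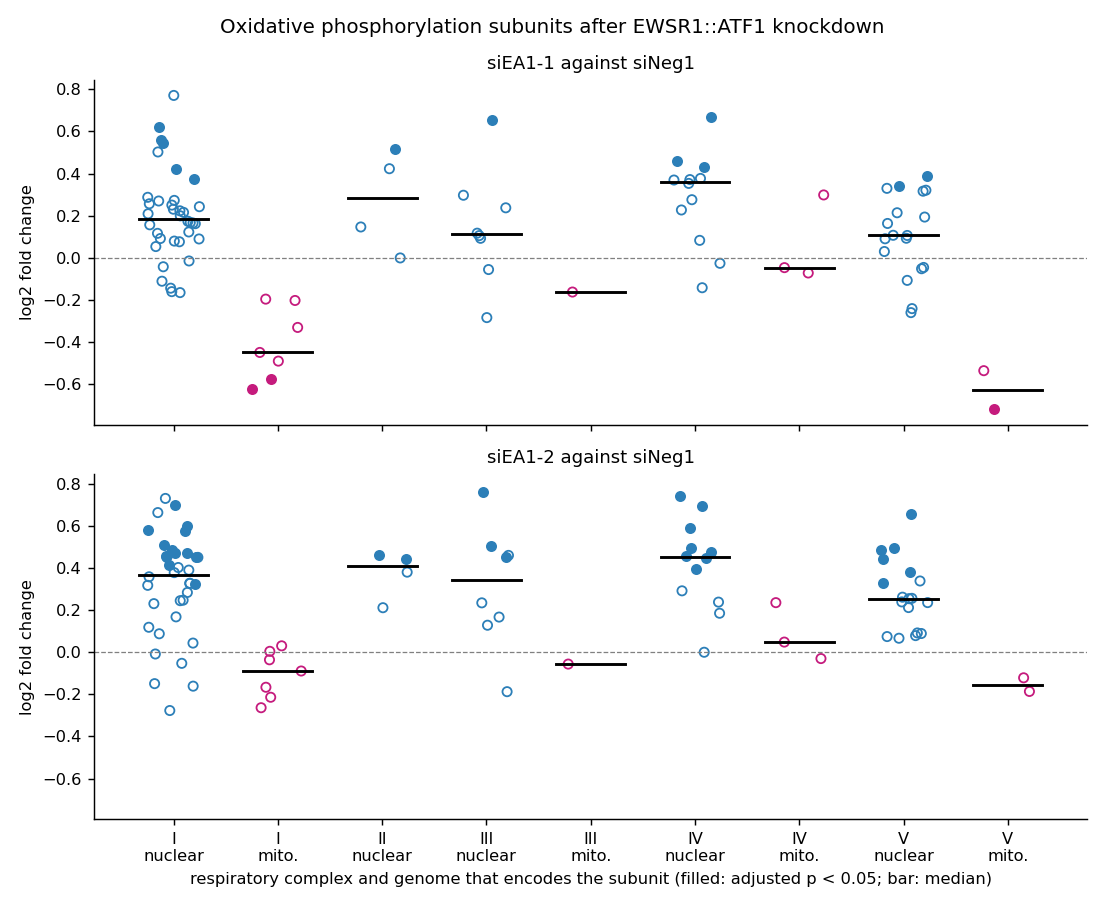
Log2 fold change (vertical axis) of the 91 subunits tested, by complex and by genome of origin (horizontal axis), with siEA1-1 above and siEA1-2 below; each point is a gene, filled where called, and each bar is a median. Blue nuclear points lie mostly above 0, with medians of 0.11 to 0.36 with siEA1-1 and 0.25 to 0.45 with siEA1-2, and the pink mitochondrial points of complexes I and V lie lowest with siEA1-1.

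A total of 9 nuclear members were called higher with each knockdown, among them ATP5MF, COX5B, COX7C, COX8A, NDUFV1 and UQCR10. Of all genes, 19.9% were called higher with siEA1-1 and 18.5% with siEA1-2. The share of all genes called with both or with 1 alone was not counted, so these counts have no background of their own. A further 3 were called with siEA1-1 alone (ATP5MC2, NDUFB7 and SDHD) and 22 with siEA1-2 alone, but a call with a single knockdown does not show that the knockdowns differed. Tested directly, siEA1-2 against siEA1-1 gave 1 nuclear call higher and 0 lower, against 1.44% and 0.796% of all genes, and 0 calls among the 13 mitochondrial members (edgeR, with 0 at an unadjusted p below 0.05 and 0 by DESeq2). The single call was ATP5F1C, the gamma subunit that turns inside the ATP synthase head. It measured 121 and 124 CPM in siNeg1, 101 and 107 CPM with siEA1-1, and 157 and 136 CPM with siEA1-2. The difference was 0.49 ± 0.106 on the log2 scale (SE, adjusted p = 0.0379), and neither knockdown alone differed from control beyond the threshold (-0.24 and 0.25). Controls lay between both knockdown groups without overlap. That call was lost on leaving out any single library but siEA1-2 replicate 2, without which 16 nuclear and 3 mitochondrial members were called higher, against 3.05% of all genes. It was kept without siNeg1 replicate 1 and siEA1-2 replicate 1 together, where COX8A was called lower (all genes 4.05% higher and 2.25% lower), and in the fit that blocks on replicate number SDHB joined it (2 calls, against 3.64% of all genes).

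Complex I accepts electrons from NADH, and its nuclear core subunits carry the flavin and iron-sulfur clusters that lead them to coenzyme Q. Over both knockdowns, 8 of its 36 nuclear subunits were called higher, a share near the 21.5% of all genes, with a median log2 fold change of 0.26. Core subunits (NDUFS7, NDUFS3 and NDUFV1) and 4 of the 29 accessory subunits (NDUFB5, NDUFA5, NDUFB7 and NDUFA10) were among them. The calls of NDUFB5, NDUFA5 and NDUFB7 were lost without siNeg1 replicate 2, and those of NDUFB7 and NDUFA10 by DESeq2. NDUFA10 was also not called without siNeg1 replicate 1 or either siEA1-1 library. NDUFV1, the flavoprotein where NADH binds (chr11:67605653-67612554, plus strand, hg38), measured 92.4 and 94.5 CPM in siNeg1, 136 and 137 CPM with siEA1-1, and 140 and 119 CPM with siEA1-2. Every knockdown library was above both controls, and the log2 fold change over both knockdowns was 0.51 ± 0.0941 (SE, adjusted p = 0.00103), a fold of 1.42. NDUFS3, a core subunit of the hydrophilic arm (chr11:47565336-47584562, plus strand), measured 48.6 and 49.8 CPM in siNeg1, 69.5 and 82.0 CPM with siEA1-1, and 75.1 and 65.3 CPM with siEA1-2. It too was separated from control in all libraries (log2 fold change 0.57 ± 0.11, adjusted p = 0.00143), and its promoter held 2 ETS matches. Its exons share bases with those of PTPMT1 and, on the other strand, CELF1, so a part of its counts is uncertain. NDUFS7, which binds the last iron-sulfur cluster before coenzyme Q, measured 26.2 and 27.3 CPM in siNeg1, 40.0 and 38.9 CPM with siEA1-1, and 53.6 and 33.7 CPM with siEA1-2. Its log2 fold change of 0.63 ± 0.172 (adjusted p = 0.0113) was not called when either siNeg1 library was left out. Other core subunits were not called, with a log2 fold change of 0.19 for NDUFS1, 0.14 for NDUFS8 and -0.19 for NDUFV2. Among accessory subunits, the largest fitted change was that of NDUFA7 (0.75, adjusted p = 0.0596), which was not called and rested on 3.6 to 7.4 CPM. The exons of NDUFA7 share 452 bases with another counted gene and 68 with RPS28 on the other strand, so a part of its counts is uncertain. NDUFB5, a membrane arm subunit, was called with siEA1-2 (0.60) and over both knockdowns (0.43), at 75.1 and 80.4 CPM in control and 90.7 to 127 CPM after knockdown.

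Complex II oxidizes succinate, and all 4 of its subunits are nuclear. SDHC and SDHD, the membrane anchors that hold heme and the coenzyme Q site, were called higher over both knockdowns, where 21.5% of all genes were, and SDHA and SDHB, the flavoprotein and the iron-sulfur protein, were not. SDHC measured 57.8 and 43.97 CPM in siNeg1, 63.3 and 73.0 CPM with siEA1-1, and 80.5 and 59.9 CPM with siEA1-2 (log2 fold change 0.44, adjusted p = 0.0288). SDHD measured 35.2 and 34.2 CPM in siNeg1, 47.6 and 51.5 CPM with siEA1-1, and 53.4 and 37.3 CPM with siEA1-2 (log2 fold change 0.45, adjusted p = 0.0258). Knockdown libraries were above control for both genes, but the SDHD call was lost without siNeg1 replicate 1, siNeg1 replicate 2, siEA1-1 replicate 2 or siEA1-2 replicate 1, and that of SDHC without siNeg1 replicate 2, siEA1-1 replicate 2 or siEA1-2 replicate 1. SDHB stood at 53.7 and 50.9 CPM in siNeg1 and 54.9 and 49.6 CPM with siEA1-1, and at 81.2 and 61.5 CPM with siEA1-2, where it was called (0.44, adjusted p = 0.0288). SDHA, part of whose exons another counted gene shares, stood at 66.0 to 81.7 CPM in all libraries (0.18 over both knockdowns, adjusted p = 0.169).

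Complex III had 2 calls among 8 nuclear members tested, UQCR10 and UQCRC1, a share near the 21.5% of all genes called higher. UQCR10, a small accessory subunit (chr22:29767369-29770413, plus strand), had the largest called change over both knockdowns among the 78 nuclear members tested. It measured 38.9 and 29.4 CPM in siNeg1, 53.9 and 53.2 CPM with siEA1-1, and 61.9 and 53.8 CPM with siEA1-2. The lowest knockdown library was well above the highest control, and the log2 fold change was 0.65 with siEA1-1, 0.76 with siEA1-2 and 0.71 ± 0.132 over both (adjusted p = 0.00108). UQCRC1 and UQCRC2 are the paired core proteins of this complex, and their fitted changes had opposite signs. UQCRC1 measured 121 and 151 CPM in control and 156 to 216 CPM after knockdown (0.37, adjusted p = 0.0403), while UQCRC2 measured 274 and 279 CPM in control and 213 to 273 CPM after knockdown (-0.24, adjusted p = 0.0928, not called). The UQCRC1 call was lost without siNeg1 replicate 2, either siEA1-1 library or siEA1-2 replicate 1. The Rieske iron-sulfur protein UQCRFS1 was called with siEA1-2 (0.50) and not over both (0.30). UQCRHL, a copy of the hinge protein gene UQCRH, had at most 9 counts in a library and was the only member not tested. UQCRH itself stood at 43.4 to 74.2 CPM with a log2 fold change of 0.04.

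Complex IV had the highest share of calls, with 7 of 12 nuclear members higher over both knockdowns, against 21.5% of all genes. Its median log2 fold change was 0.40, and no difference between complexes was tested. With siEA1-1, 3 of the 12 were called higher, against 19.9% of all genes, and with siEA1-2 8, against 18.5%. COX8A, a small single-pass subunit (chr11:63974620-63976543, plus strand), measured 73.6 and 69.0 CPM in siNeg1, 116 and 111 CPM with siEA1-1, and 117 and 84.5 CPM with siEA1-2. All 4 knockdown libraries lay above both controls, and the change was 0.58 ± 0.125 (SE, adjusted p = 0.00267). COX7C measured 141 and 121 CPM in siNeg1, 180 and 179 CPM with siEA1-1, and 243 and 181 CPM with siEA1-2, so that it was likewise above control in every knockdown library (0.58, adjusted p = 0.00244). COX7B was highest by far in siEA1-2 replicate 1. It measured 187 and 142 CPM in siNeg1, 218 and 207 CPM with siEA1-1, and 357 and 194 CPM with siEA1-2 (0.56, adjusted p = 0.0395). COX5B, COX6A1, COX6B1 and COX6C were also called, with changes of 0.44, 0.37, 0.43 and 0.48. The calls of COX6B1 and COX7B were lost by DESeq2, that of COX6C with RLE scaling factors, and those of COX6C and COX7B after a correction for GC content. Those of COX8A, COX7C, COX5B and COX6A1 were kept in each of these. Without siNeg1 replicate 2, the calls of COX5B, COX6A1, COX6B1, COX6C, COX7B and COX7C were lost, and that of COX8A was kept. COX4I1 and COX5A, which lie next to the catalytic core, were not called (0.19 and 0.11). The isoform genes that replace ubiquitous subunits in muscle, lung, testis or hypoxia (NDUFA4L2, COX4I2, COX6A2, COX6B2, COX7A1, COX7B2 and COX8C) had no row in the counts analysed here. COX7A2, COX7A2L and NDUFA4 were not called (0.23, -0.07 and 0.34).

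Complex V had 5 calls among 18 nuclear members, not far from the 21.5% of all genes called higher, and the lowest median of the complexes with several members, 0.16. ATP5F1A, the alpha subunit of the catalytic head, measured 386 and 343 CPM in siNeg1, 450.1 and 460.3 CPM with siEA1-1, and 683 and 465 CPM with siEA1-2 (0.49 ± 0.137, adjusted p = 0.0127). All 4 knockdown libraries lay above control. Its partner ATP5F1B, the beta subunit that holds the catalytic sites, measured 725 and 784 CPM in control and 824 to 1246 CPM after knockdown, and was called with siEA1-2 (0.49) but not over both knockdowns (0.34, adjusted p = 0.0524). Of the 3 genes that encode the same mature c-ring protein, ATP5MC2 (0.32) and ATP5MC3 (0.41) were called and ATP5MC1 (0.16) was not, which does not show a difference between them. The stalk subunit ATP5PB (0.38) and ATP5MF (0.34) completed the calls. Without siNeg1 replicate 2, the calls of ATP5F1A, ATP5MC2, ATP5MC3, ATP5PB and ATP5MF were lost, and that of ATP5MF was also lost by DESeq2. ATP5IF1, the natural inhibitor of the enzyme, stood at 5.4 to 11.8 CPM with a log2 fold change of 0.10.

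**Figure D3:**
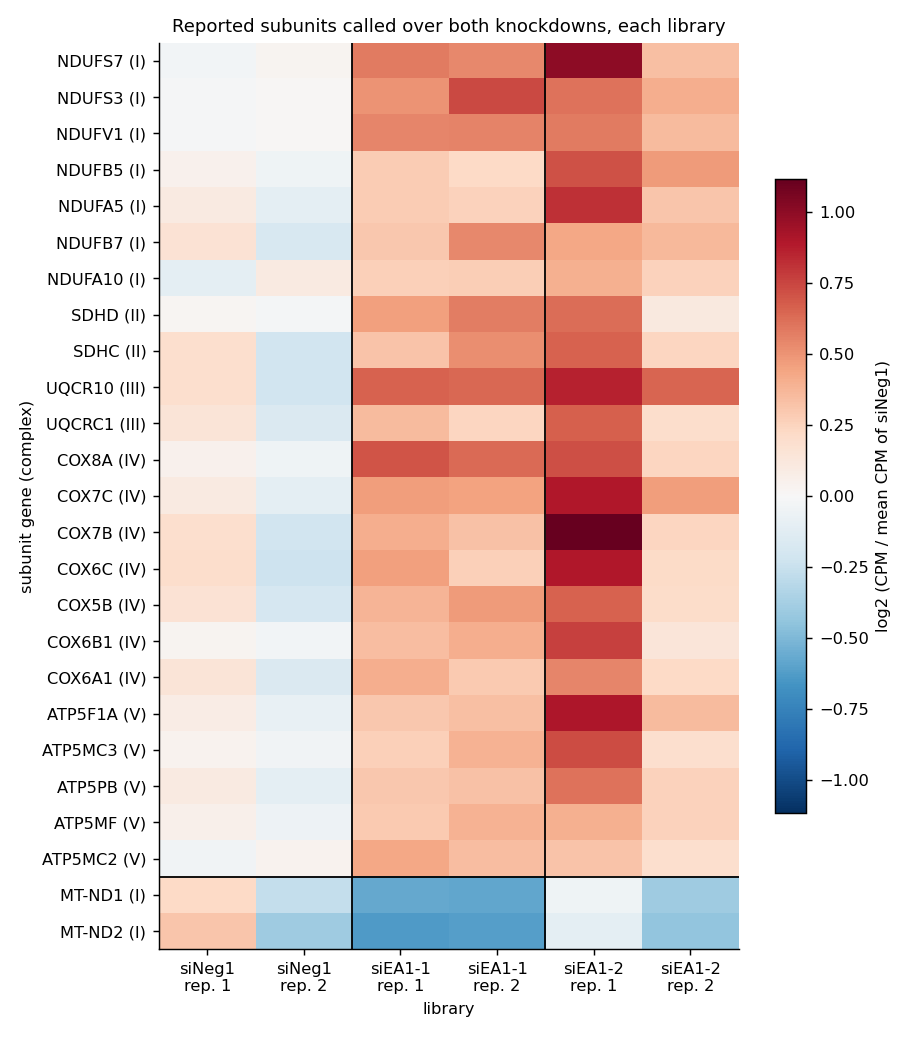
Each library (columns) against the mean of siNeg1 (colour, log2 of CPM over that mean) for nuclear and mitochondrial subunits called over both knockdowns (rows, with their complex). Nuclear rows are red in all 4 knockdown columns, and MT-ND1 and MT-ND2 are bluest in the siEA1-1 columns and pale in siEA1-2 replicate 1.

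The mitochondrial mRNAs were the most abundant members. Per kilobase of transcript, the 13 mitochondrial members had a median of 2883 CPM in control, from 653 for MT-ND6 to 7478 for MT-CO2, and the 79 nuclear members a median of 59.9 CPM, from 3.14 for UQCRHL to 429 for ATP5F1B. The reads were aligned without a model of splicing and mitochondrial genes have no introns, and how far this raised their levels against nuclear genes was not tested. Within the nuclear set, complex IV had the highest median level per kilobase (99.5 CPM) and complex II the lowest (32.4 CPM). As a share of all counts, mitochondrial mRNA made up 4.61 ± 0.962% in siNeg1, 4.27 ± 0.174% with siEA1-1 and 4.49 ± 0.687% with siEA1-2 (SD, n = 2), which did not differ beyond the spread.

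No mitochondrial member was called higher by edgeR, DESeq2 or at an unadjusted p below 0.05 in any comparison. With siEA1-1, 3 of 13 were called lower (MT-ND1, MT-ND2 and MT-ATP8), with siEA1-2 0 (also 0 at an unadjusted p below 0.05 and 0 by DESeq2) and over both 2 (MT-ND1 and MT-ND2), counts near or below the 20.3%, 18.2% and 22.1% of all genes called lower. The median log2 fold change of the 13 was -0.33, -0.06 and -0.18 in these comparisons. MT-ND1, a membrane core subunit of complex I (chrM:3307-4262, plus strand, a single exon), measured 4861 and 3453 CPM in siNeg1, 2798 and 2783 CPM with siEA1-1, and 4011 and 3156 CPM with siEA1-2. MT-ND2, the next mRNA along the genome (chrM:4470-5511), measured 3090.2 and 1897 CPM in siNeg1, 1607 and 1630.3 CPM with siEA1-1, and 2319 and 1835 CPM with siEA1-2. Only siEA1-1 was below both controls for these 2 genes, and siEA1-2 overlapped them. The log2 fold change over both knockdowns was -0.39 for MT-ND1 (adjusted p = 0.0436) and -0.44 for MT-ND2 (adjusted p = 0.0491). For MT-ATP8, a small membrane subunit of ATP synthase, it was -0.72 with siEA1-1 (adjusted p = 0.0444) and -0.19 with siEA1-2. MT-CO1, the catalytic subunit of complex IV that holds heme and copper, had the highest fitted change of the 13. It measured 12376 and 10293 CPM in siNeg1, 14399.8 and 13483 CPM with siEA1-1, and 14881 and 11798 CPM with siEA1-2 (0.27, adjusted p = 0.135, not called).

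None of the 13 had every knockdown library on 1 side of both controls. Of all genes tested, 28.1% had every knockdown library above both controls and 27.3% below. The mitochondrial calls depended on the libraries. Without siNeg1 replicate 1, siEA1-1 replicate 1 or siEA1-1 replicate 2, 0 mitochondrial members were called lower with siEA1-1 or over both knockdowns, where 13.7 to 14.8% and 15.7 to 19.3% of all genes were. Without siNeg1 replicate 2 they were 7 and 6 (all genes 15.4 and 16.7%), without siEA1-2 replicate 1 6 and 6 (21.9 and 22%), and without siEA1-2 replicate 2 6 with siEA1-1 (22%). With siEA1-2 alone, 2 were called lower without siEA1-2 replicate 1 (14.4%) and 1 without siNeg1 replicate 2 (12.9%). Without siNeg1 replicate 1 and siEA1-2 replicate 1 together, 1 was lower and MT-CO1 was higher with siEA1-1, 0 were called with siEA1-2, and MT-ND6 lower and MT-CO1 higher over both, where 19.8% and 19.1% of all genes were called lower with siEA1-1 and over both. With the replicate number as a block, 5 were called lower with siEA1-1 (all genes 22.4%) and 4 over both (24%), and MT-CO1 was called higher in both comparisons.

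**Figure D4:**
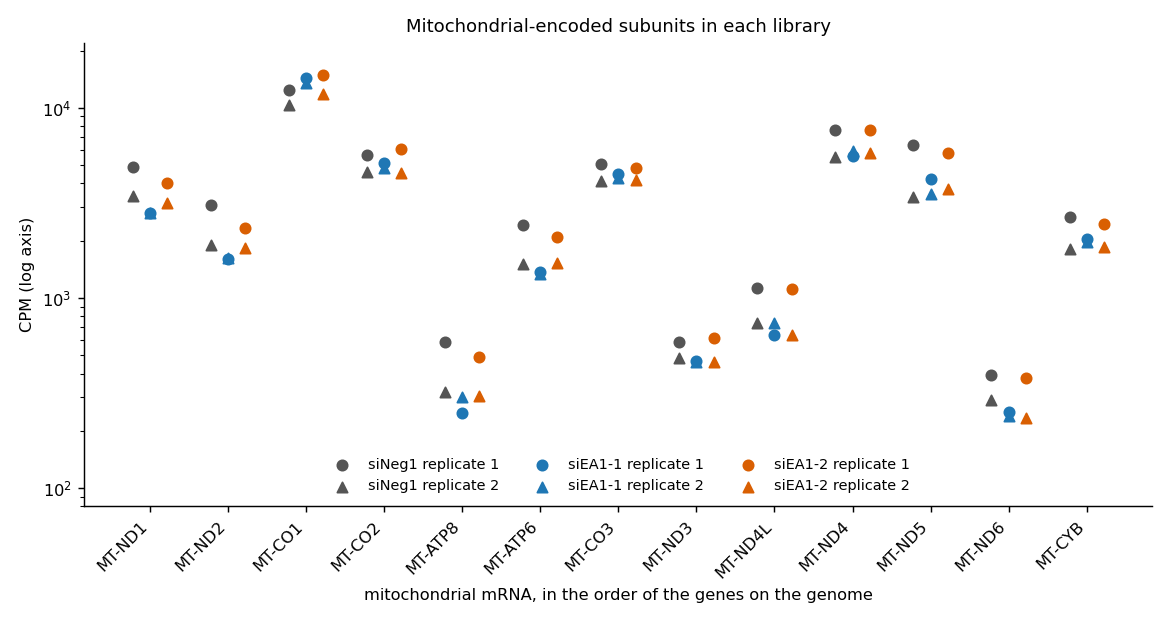
Level of the 13 mitochondrial mRNAs (vertical axis, CPM on a log axis) in the order of their genes (horizontal axis); circles are replicate 1 and triangles replicate 2 of siNeg1 (grey), siEA1-1 (blue) and siEA1-2 (orange). In grey and orange the circle is above the triangle for every gene, and blue lies lowest for MT-ND1 and MT-ND2 and high for MT-CO1.

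The makeup of mitochondrial mRNA inside a library is measured against that library's own mitochondrial total. MT-CO1 made up 23.4 and 26.8% of mitochondrial mRNA counts in siNeg1, 33.3 and 32.5% with siEA1-1, and 28.3 and 29.5% with siEA1-2. MT-ND1 made up 9.20 and 8.99% in siNeg1, 6.48 and 6.71% with siEA1-1, and 7.62 and 7.89% with siEA1-2. MT-ND2 made up 5.85 and 4.94% in siNeg1, 3.72 and 3.93% with siEA1-1, and 4.40 and 4.59% with siEA1-2. All 4 knockdown libraries were above both controls for MT-CO1 and below them for MT-ND1 and MT-ND2, with siEA1-2 between siNeg1 and siEA1-1 in each case. MT-ND6, the only mRNA from the light strand, was also below (0.746 and 0.759% in siNeg1, 0.579 and 0.574% with siEA1-1, and 0.719 and 0.583% with siEA1-2), and the other 9 overlapped. A share of a whole can fall because another rises, so a lower share is not a lower level, and with 2 libraries a group these shares were not tested. The order of libraries has no background on this measure. By CPM, 28.1% of all genes tested had every knockdown library above both controls and 27.3% below, so such an order is common.

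The ratio of mitochondrial to nuclear member counts compares both genomes inside a library. It was 7.55 and 6.24 in siNeg1, 5.78 and 5.46 with siEA1-1, and 5.36 and 5.49 with siEA1-2. Control was above every knockdown library, with means of 6.90 ± 0.926, 5.62 ± 0.227 and 5.42 ± 0.0881 (SD, n = 2), and the ratio was not tested. The summed level of nuclear members was 6996 and 6157 CPM in siNeg1, 7471 and 7591 CPM with siEA1-1, and 9823 and 7295 CPM with siEA1-2, and the summed mitochondrial level overlapped between groups (38421 to 52819 CPM in control, 40016 to 52657 CPM after knockdown).

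**Figure D5:**
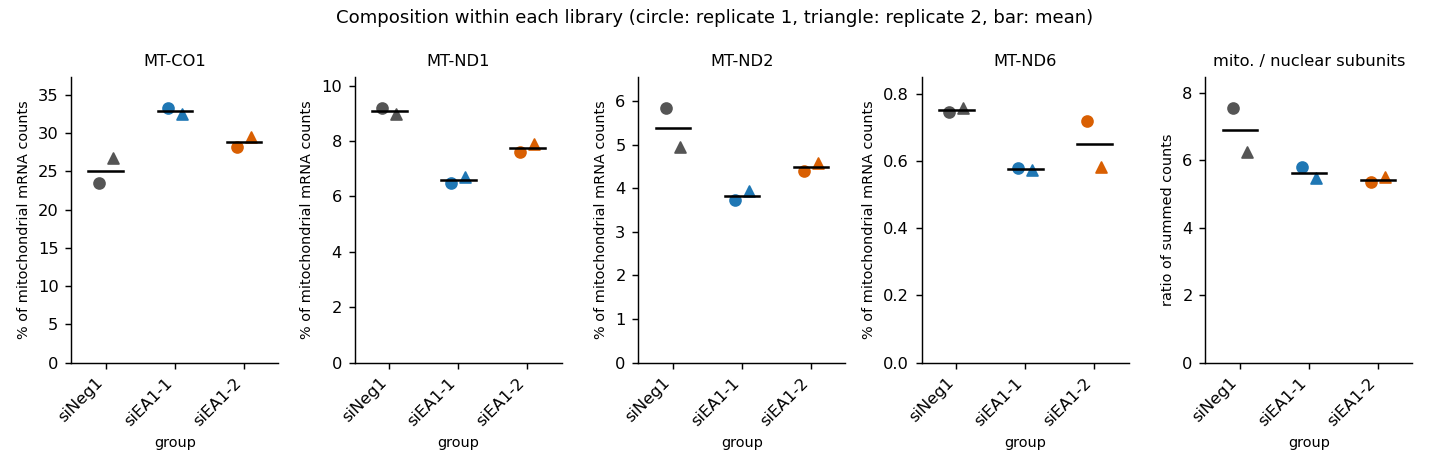
Share of MT-CO1, MT-ND1, MT-ND2 and MT-ND6 in mitochondrial mRNA counts (vertical axes, percent) and the ratio of mitochondrial to nuclear subunit counts (last panel), by group (horizontal axes); circles are replicate 1, triangles replicate 2 and bars means. Mean MT-CO1 is 25.1% in siNeg1, 32.9% with siEA1-1 and 28.9% with siEA1-2, and the bars of the last panel lie at 6.90, 5.62 and 5.42.

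Some mitochondrial counts cannot be assigned with certainty. MT-ATP8 and MT-ATP6 share 46 bases (chrM:8527-8572, hg38), in which the end of the first reading frame and the start of the second are read in different frames. The shared bases are in capitals, with 12 bases on each side.
MT-ATP8 and MT-ATP6, chrM:8515-8584, plus strand: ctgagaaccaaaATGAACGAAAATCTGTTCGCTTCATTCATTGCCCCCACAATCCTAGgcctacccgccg

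Nuclear copies of the mitochondrial genome on chromosome 1 also drew counts. MTATP6P1 is 98.5% identical to MT-ATP6 and held 10.1 to 10.9% as many counts as MT-ATP6 in every library, and MTND2P28 held 0.959 to 2.53% as many as MT-ND2. Copies of MT-CO1, MT-CO2 and MT-CO3 held 0.109 to 0.528%. Of 22 nuclear copies tested, 0 were called over both knockdowns by edgeR or DESeq2, and 1 was lower at an unadjusted p below 0.05. By edgeR, 21.5% of all genes were called higher and 22.1% lower over both. With siEA1-1, 1 copy was called lower by edgeR, against 20.3% of all genes, and 0 by DESeq2. It was MTATP6P1 (-0.59, adjusted p = 0.0341), and MT-ATP6 itself was not called there (-0.54, adjusted p = 0.0549).

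Of 57 assembly factors tested, 4 were called higher and 7 lower over both knockdowns, with a median of 0.02. Both counts were below the 21.5% and 22.1% of all genes called higher and lower. TTC19, a complex III factor, fell by 1.07 on the log2 scale (52.2 and 54.5 CPM in siNeg1, 22.9 to 29.0 CPM after knockdown), and FOXRED1 and SDHAF2, factors of complexes I and II, fell by 0.76 and 0.70. Among 21 electron carrier and coenzyme Q genes 4 were higher and 3 lower, shares near or below those of all genes. DHODH, which feeds electrons from pyrimidine synthesis into coenzyme Q, fell by 1.37, PDSS1, which starts its side chain, fell by 0.81, and COQ4 rose by 0.82. Cytochrome c, CYCS, was called lower with siEA1-1 (-0.44) but not over both knockdowns (-0.13), and CYC1, the cytochrome c1 of complex III that the symbol rule leaves out, was not called (0.23). NDUFAB1, the acyl carrier subunit of complex I that the rule also leaves out, was called higher (0.76 ± 0.131, adjusted p = 0.000614).

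Of 16 genes for copying and transcribing the mitochondrial genome, 4 were called lower and 0 higher over both knockdowns by edgeR (0 higher also by DESeq2 and at an unadjusted p below 0.05). Their median was -0.21, and the count called lower was near the 22.1% of all genes. TFAM, which packages mitochondrial DNA and starts its transcription, measured 109 and 114 CPM in siNeg1, 57.5 and 59.1 CPM with siEA1-1, and 52.0 and 56.6 CPM with siEA1-2 (log2 fold change -0.98 ± 0.088, adjusted p = 4.98e-06). The helicase TWNK fell by 0.68, the single-strand binding protein SSBP1 by 0.35 and POLG, the polymerase, by 0.31. Knockdown libraries were below control for all 4, but these were named because they were called lower. By the same order, 27.3% of all genes tested had every knockdown library below both controls. Genes that process or degrade mitochondrial RNA were called both ways, with 6 of 24 higher and 6 lower, near the 21.5% and 22.1% of all genes. TRUB2 (1.47), RPUSD3 (1.15) and FASTK (1.11), which are found in mitochondrial RNA granules, changed most, at 44.8 to 113 CPM in control and 88.7 to 296 CPM after knockdown. Mitochondrial tRNA genes had 1 call of 19 tested, below the share of all genes, in MT-TP (-0.55, adjusted p = 0.0348), at 28.6 and 19.7 CPM in control and 12.8 to 21.0 CPM after knockdown.

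Nuclear members are short transcripts, with a median of 758 bases against 3057.5 for all genes tested with a length, and mitochondrial members have a median of 784. Across the 78 nuclear members, Pearson's r between the change over both knockdowns and transcript length (log2) was 0.05, and with GC content it was 0.02, whereas the difference between siEA1-2 and siEA1-1 was larger in members of low GC content (r = -0.49, Spearman rho -0.52). These are descriptions across genes, which share libraries and are not independent. After a correction for GC content in each library, ATP5F1C was not called between the knockdowns, and after a correction for length 29 nuclear members were called higher and 0 mitochondrial members lower over both knockdowns, against 21.1% and 22.5% of all genes.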

How the data were processed

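RNA of 6 SU-CCS-1 samples was sequenced with a stranded, poly(A)-selected kit. The authors mapped reads to hg38 with BWA-MEM, an aligner without splice junctions, and deposited raw counts per gene from featureCounts 1.6.3, not normalized. The annotation, the use of strand and the treatment of multiply aligned reads are not given in the sources used here, so overlapping and antisense genes are uncertain.

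Groups and replicate numbers came from sample titles. From the counts, edgeR 4.0.16 (R 4.3.3) was run over 3 groups with filterByExpr (minimum count 10, minimum total 15; 14571 of 18118 genes), TMM scaling and the quasi-likelihood test. P-values were adjusted by Benjamini-Hochberg across all genes tested, and standard errors came from the F statistic. Alternatives were other filters, RLE factors, scaling without mitochondrial genes, DESeq2 1.42.0, a replicate block, only the 4 libraries compared and leaving out each library. Length and GC corrections, the block with length correction, and leaving out siNeg1 replicate 1 with siEA1-2 replicate 1 were added after seeing the data. Deviations of same-numbered replicates from their group means correlated at 0.130 to 0.199 across genes in all 3 pairs of groups, and blocked values are therefore printed. Coordinates and lengths came from GENCODE release 44. The fit was tested on simulated data.

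The members, lists and motifs were chosen with earlier results of these data known. Genes named are the mitochondrial, complex II, core and isoform members, CYC1, CYCS, the largest called changes of each complex and list, and members called between the knockdowns. NDUFAB1, POLG, NDUFB5 and others outside this rule were named after their values were seen, and the values of 1 member are not reported here.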

Additional observations from a re-analysis of the deposited data

Results flagged for a closer look

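ATP5F1C, the gamma subunit of ATP synthase, was the member whose change differed between the 2 knockdowns by the direct test: 0.49 on the log2 scale for siEA1-2 over siEA1-1 (edgeR quasi-likelihood test, Benjamini-Hochberg adjusted p = 0.0379, higher in 2 of 2 libraries). Levels were 121 and 124 CPM in siNeg1, 101 and 107 CPM with siEA1-1, and 157 and 136 CPM with siEA1-2. It was 1 call among 78 nuclear members, a share near the 1.44% of all genes called higher in that comparison. The call was lost on leaving out any single library but siEA1-2 replicate 2, after GC correction, and with only the 4 libraries compared.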

How the results depend on the processing

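Nuclear members called higher numbered 12 with siEA1-1, 31 with siEA1-2, 24 over both knockdowns and 1 between the knockdowns as reported. They were 6 and 18 by DESeq2 with siEA1-1 and siEA1-2, 22 and 19 with only the 4 libraries compared, and 0 between the knockdowns with only those libraries or after GC correction. With the replicate number as a block, which the labels' numbers define, they were 22 with siEA1-1 and 2 between the knockdowns, and with the block and a length correction 22, 38 over both and 2 between. Leaving out libraries gave ranges of 3 to 31, 4 to 49, 5 to 40 and 0 to 16. Nuclear members called lower numbered 0 as reported, 2 with siEA1-1 in only the 4 libraries compared, and 0 to 2, 0 to 1, 0 to 1 and 0 to 1 leaving out libraries. Mitochondrial members called lower numbered 3, 0, 2 and 0 as reported. By DESeq2 they were 1 with siEA1-1 and 1 over both, with the block 5 and 4, with the block and a length correction 5 with siEA1-1, with only the 4 libraries compared 6 with siEA1-1, and after length correction 0 over both. Leaving out libraries gave 0 to 7, 0 to 2 and 0 to 6. Mitochondrial members called higher, 0 as reported, were 1 (MT-CO1) with siEA1-1 and over both under the block with and without length correction, and 0 to 1, 0 to 1 and, between the knockdowns, 0 to 3 leaving out libraries. The cause of these changes was not tested, apart from the fewer samples of the fits that leave out libraries.

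Median log2 fold changes of mitochondrial members ranged, leaving out libraries, from -0.72 to -0.060 with siEA1-1, -0.40 to 0.25 with siEA1-2, -0.56 to 0.076 over both and -0.053 to 0.51 between the knockdowns, and those of nuclear members from 0.14 to 0.47 with siEA1-2 and -0.075 to 0.33 between the knockdowns. As a share of protein-coding counts, mitochondrial mRNA was 4.55% with siEA1-1, against 4.27% of all counts. Of 2167 single-gene values under an alternative, 1813 kept direction and side of the threshold, 260 lost the call, 52 gained it and 42 changed sign. Every one of these changes of sign was in a value that was not called as reported. MT-CO2 over both knockdowns was -0.0022 without a filter, -0.014 with RLE factors and by DESeq2, -0.000205 scaled without mitochondrial genes and -0.028 after GC correction, and ATP5F1C was -0.0085 with RLE factors, -0.0084 by DESeq2 and -0.0200 after GC correction. Leaving out libraries, changes over both knockdowns ranged from -0.67 to 0.057 for MT-ATP6, -0.86 to 0.046 for MT-ATP8, -0.17 to 0.16 for MT-CO2, -0.23 to 0.11 for MT-CO3, -0.26 to 0.043 for MT-ND3, -0.33 to 0.17 for MT-ND4, -0.58 to 0.076 for MT-ND4L, -0.60 to 0.34 for MT-ND5, -0.39 to 0.19 for MT-CYB, -0.069 to 0.030 for ATP5F1C, -0.12 to 0.51 for COX4I1, -0.095 to 0.29 for COX5A, -0.41 to 0.76 for ATP5IF1, -0.20 to 0.25 for UQCRH and -0.23 to 0.013 for EWSR1. With siEA1-2 they ranged from -0.48 to 0.056 for MT-ND1, -0.61 to 0.13 for MT-ND2 and -0.59 to 0.31 for MT-ATP8, and between the knockdowns from -0.24 to 0.084 for MT-CO1.

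Where 1 library of a group was left out, the remaining one was assumed to vary like the other groups.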
